A study of Danio rerio with 7 samples.

Results

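The genes described here are the Hox cluster genes, the homeobox transcription factors whose zebrafish symbols begin with hoxa, hoxb, hoxc or hoxd followed by a paralog group number. The symbol rule found 38 members among the 33737 Ensembl gene IDs of the tables, and all 38 were assigned at least 1 read in every library and were tested. They lie in 5 clusters on the Zv9 genome build, named here as hoxab on chromosome 16 (5 members), hoxba on chromosome 3 (11), hoxbb on chromosome 12 (4), hoxca on chromosome 23 (11) and hoxda on chromosome 9 (7). A symbol was available for 21939 of the 33737 IDs, and no member was found in the hoxaa or hoxcb cluster. Other Hox genes of zebrafish were not analysed here. The sums, shares and rankings below therefore cover these 38 members alone.

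RNA sequencing was carried out on hearts at 96 hours post fertilization (hpf), in 4 libraries from cora embryos and 3 from their unaffected clutchmates. The cora embryos were homozygous for stl325, a recessive, chemically induced nonsense allele of the gene taf5. Taf5 is part of the general transcription factor TFIID. The labels give the cora genotype as KO, and both groups carried Tg(cmlc2::gfp), a reporter that marks heart muscle. The labels call the controls wild type, but unaffected clutchmates can include heterozygous carriers, and each library was made from a pool of hearts, so the spread between libraries is a spread between pools. The control libraries are numbered 1 and 3 in the labels and the other has no number.

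Hox proteins bind DNA through a homeodomain, mostly together with Pbx and Meis partners, and give cells of the neural tube, mesoderm and fins their position along the body. Within a cluster the genes are switched on in the order in which they lie, so low paralog groups begin their expression in the hindbrain and pharyngeal arches and high groups are restricted to the trunk, tail and fins. The heart field lies near the front limit of Hox expression, where retinoic acid and a few low-numbered Hox genes set its posterior edge.

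Levels are given as RPKM, which divides reads by exon length and library size, scaled between libraries by TMM (normalized RPKM), so that genes of different length can be compared. Libraries held 21474488 to 32037220 gene reads, so that 3 reads corresponded to 0.0936 to 0.140 CPM, the read count scaled to library size alone. Control 1 stood apart, with 33.7% of its reads on mitochondrial genes against 16.8% to 21.8% in the other libraries. The 13 matched cardiomyocyte markers were detected in every library, with summed levels of 398 to 1891 normalized CPM in cora and 291 to 3670 in control libraries. Of these 13 markers 11 had a log2 fold change below 0 and 2 above 0, where 47.8% of all genes tested were above 0. Their median was -0.82, against -0.03 over all genes, and the groups overlapped for every marker. The part of heart content in the Hox levels was not tested. Epidermal markers summed to 23426 to 33517 normalized CPM in cora and 12620 to 40744 in control libraries. Control 1 had the lowest cardiomyocyte sum of all libraries, 291 against 1598 and 3670 in the other controls, and the highest epidermal sum, 40744 against 13771 and 12620. The heart label covers material that also held RNA of other tissues, and the sample titles name zebrafish embryos. The mutated gene, taf5, had 1.97, 3.10, 3.695 and 4.56 normalized CPM in the cora libraries, against 8.83, 5.27 and 5.10 in the control libraries. Its log2 fold change of -0.94 ± 0.38 SE did not pass edgeR's quasi-likelihood test (adjusted p = 0.232). All 4 cora values of taf5 lay below all 3 control values.

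Summed over the members, Hox transcripts were more abundant in the cora libraries, but no single Hox gene passed the test across all genes. The levels of the 38 members summed to 283, 310.0, 216 and 151 normalized RPKM in cora libraries 1 to 4, against 117, 130 and 148 in control 1, the unnumbered control and control 3. The means were 240.0 ± 71.4 in cora and 132 ± 15.4 in control libraries (SD, n = 4 and 3). The lowest cora library, number 4, lay just above the highest control library. With library size alone in place of TMM, the sum of cora 4 lay below that of control 3. No test was run on this sum. The median over the 38 members was 7.02, 7.32, 5.04 and 2.21 normalized RPKM in cora libraries 1 to 4. In control 1, the unnumbered control and control 3 it was 2.84, 2.12 and 2.48, so by the median cora 4 lay within the control range. In bulk tissue, more cells that use Hox genes and more Hox RNA per cell cannot be told apart.

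In edgeR's quasi-likelihood test, 0 of 38 members passed at a Benjamini-Hochberg adjusted p under 0.05, where 1.97% of the 21632 genes tested did (1.11% higher and 0.86% lower in cora). Adjusted p ranged between 0.054 for hoxd3a and 0.996 for hoxa2b. At an unadjusted p under 0.05 there were 15 members higher and 0 lower in cora, where 9.13% of all genes tested were higher and 8.61% lower. With DESeq2's Wald test 9 members had an adjusted p under 0.05, against 8.32% of all genes, and with limma's voom and sample quality weights 7 members did, against 14.4% of all genes. In every one of these calls the member was higher in cora. The log2 fold change was above 0 for 34 of 38 members (89.5%), compared with 47.8% of all genes tested, and its median was 0.95 over the members and -0.03 over all genes. A log2 fold change of 1 or more was found for 14 members, where 7.21% of all genes reached it, and one of -1 or less for 0 members, where 8.84% did. All cora libraries lay above all control libraries for 12 members, where 9.01% of genes did so, and below them for 0, where 8.73% did. This comparison used TMM-scaled levels. With reads divided by library size alone, the groups overlapped for hoxb3a, hoxb4a, hoxb5b and hoxd13a. The share over all genes was not computed for that scaling.

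**Figure D1:**
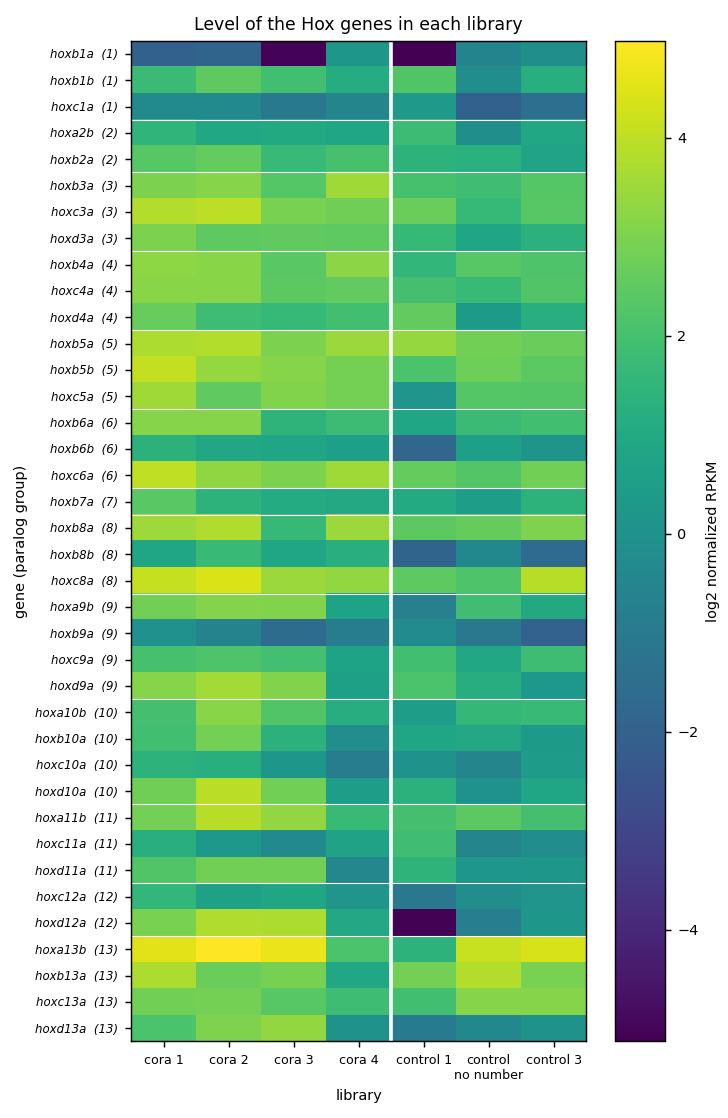
Level of each of the 38 Hox genes (rows, with the paralog group in parentheses) in each library (columns), as log2 normalized RPKM. The cora libraries stand left of the white line and the control libraries right of it, and hoxa13b is the brightest row, with 31.6 normalized RPKM in cora 2, while hoxb1a and hoxd12a are darkest in control 1, with 1 read each (hoxb1a also in cora 3).

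The members were expressed at low to moderate levels. The mean over the 7 libraries lay between 0.479 normalized RPKM for hoxb1a and 17.9 for hoxa13b. It was below 1 for 3 members, between 1 and 5 for 18 and 5 or more for 17, and 5 members had fewer than 10 reads in at least 1 library. The 10 highest members by mean level came from paralog groups at every body position, namely hoxa13b, hoxc8a, hoxb5a, hoxc6a, hoxb5b, hoxb8a, hoxc3a, hoxb13a, hoxa11b and hoxb4a.

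Grouped by position, the anterior members (paralog groups 1 to 3, 8 genes) had a median log2 fold change of 0.73, the central members (groups 4 to 8, 13 genes) of 0.92 and the posterior members (groups 9 to 13, 17 genes) of 0.99. The fold change was above 0 for 7 of 8 anterior, 13 of 13 central and 14 of 17 posterior members. In TMM-scaled levels the groups did not overlap for 4 anterior, 6 central and 2 posterior members, always with cora higher. Of all genes tested, 9.01% did so. The plot of fold changes by paralog group shows the posterior members spread most widely, with both the highest and the lowest value among all 38.

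**Figure D2:**
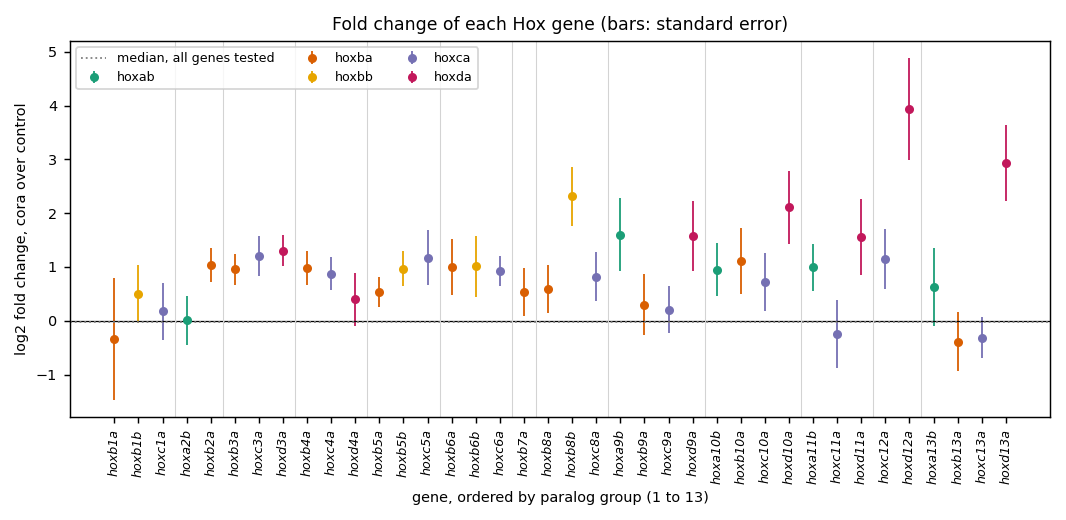
Log2 fold change of each Hox gene, cora over control, ordered by paralog group and coloured by cluster, with bars for the standard error and a dotted line at the median of all genes tested. Values lie above 0 for 34 of 38 genes, and hoxd12a at 3.94 and hoxd13a at 2.94 stand highest, both from the hoxda cluster.

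The anterior genes of paralog group 1, which pattern the hindbrain, were low in normalized RPKM. For hoxc1a this level is divided by 8400 exon bases, against 1606 for hoxb1b. Its reads, 65 to 243 per library, were near the 44 to 241 of hoxb1b. hoxb1b, the highest of the 3, had 3.39, 5.61, 3.74 and 2.17 normalized RPKM in cora libraries 1 to 4, against 4.69, 0.897 and 2.36 in control 1, the unnumbered control and control 3 (log2 fold change 0.50 ± 0.54 SE, adjusted p = 0.692). The groups overlapped. hoxb1a, which gives a hindbrain segment its identity, had 0.0306 to 1.17 normalized RPKM in the cora libraries and 0.0286 to 0.926 in the control libraries and a log2 fold change of -0.34 with an SE of 1.13, and hoxc1a had 0.489 to 0.812 normalized RPKM in the cora libraries and 0.253 to 1.25 in the control libraries. In paralog group 2, hoxa2b, a selector gene of the second pharyngeal arch, had 1.76 to 2.8 normalized RPKM in the cora libraries. The control libraries had 0.94 to 3.49. The log2 fold change of hoxa2b was 0.01, and its sign depended on the scaling and on which library was left out.

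hoxb2a, a hindbrain gene, had 5.12, 6.1, 3.33 and 4.1 normalized RPKM in the cora libraries, against 2.63, 2.52 and 1.69 in the control libraries (log2 fold change 1.03 ± 0.32 SE, adjusted p = 0.137). All cora values lay above all control values. The 3 members of paralog group 3, which act in the posterior hindbrain and pharyngeal arches, shared this pattern. hoxd3a had 8.003, 5.55, 5.69 and 5.53 normalized RPKM in cora libraries 1 to 4, against 3.12, 1.81 and 2.6 in control 1, the unnumbered control and control 3 (log2 fold change 1.3 ± 0.28 SE, adjusted p = 0.054), the smallest adjusted p among the 38. The cora values were close together apart from the higher cora 1, and the control values were all lower. hoxc3a had 14.1, 15.6, 7.76 and 6.97 normalized RPKM in the cora libraries, against 6.32, 3.12 and 5.1 in the control libraries (log2 fold change 1.2 ± 0.37 SE, adjusted p = 0.134), and hoxb3a had 7.83, 8.73, 5.04 and 11.6 normalized RPKM in the cora libraries, against 4.08, 3.71 and 5.02 in the control libraries (log2 fold change 0.96 ± 0.29 SE, adjusted p = 0.131). For hoxb3a the lowest cora value, in cora 3, was only slightly above the highest control value.

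Central Hox genes, which pattern the posterior hindbrain, spinal cord and trunk, had higher mean levels in cora for all 13 members. In paralog group 4, hoxb4a, expressed up to the posterior hindbrain, had 9.68, 9.04, 5.32 and 9.47 normalized RPKM in the cora libraries, against 2.96, 5.12 and 4.61 in the control libraries (log2 fold change 0.98 ± 0.32 SE, adjusted p = 0.15). hoxc4a had 8.98, 9.14, 5.41 and 5.84 normalized RPKM in the cora libraries, against 3.97, 3.33 and 4.7 in the control libraries (log2 fold change 0.88 ± 0.31 SE, adjusted p = 0.182). Neither gene's groups overlapped. hoxd4a had 3.17 to 6.26 normalized RPKM in the cora libraries and 1.32 to 5.93 in the control libraries, with overlap and a log2 fold change of 0.40.

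hoxb5b belongs to paralog group 5 and in zebrafish acts downstream of retinoic acid in the forelimb field to limit the size of the heart field. Its levels were 16.6, 10.3, 8.92 and 7.22 normalized RPKM in cora libraries 1 to 4, against 4.37, 6.74 and 5.43 in control 1, the unnumbered control and control 3 (log2 fold change 0.96 ± 0.33 SE, adjusted p = 0.165). Cora 1 was the highest and the control libraries lay below every cora library. Its duplicate hoxb5a was the more abundant of the pair by mean level and had 13.2, 14.1, 7.84 and 11.1 normalized RPKM in the cora libraries, against 10.5, 7.13 and 6.37 in the control libraries (log2 fold change 0.53 ± 0.28 SE, adjusted p = 0.364). Here cora and control libraries overlapped. hoxc5a had 11.6, 5.72, 8.47 and 7.33 normalized RPKM in the cora libraries, against 1.1, 4.94 and 4.91 in the control libraries (log2 fold change 1.17 ± 0.51 SE, adjusted p = 0.268), and control 1, with 26 reads, was far below the other control libraries.

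hoxc6a, a gene of the trunk at the level of the pectoral fins, had 15.96, 9.91, 7.97 and 11.6 normalized RPKM in the cora libraries, against 6.06, 4.88 and 7.03 in the control libraries (log2 fold change 0.92 ± 0.29 SE, adjusted p = 0.135). Every cora value exceeded every control value. hoxb6a and hoxb6b had log2 fold changes of 0.99 and 1.01, with overlapping groups. hoxb7a, the member of paralog group 7, had 5.19, 2.64, 2.11 and 1.98 normalized RPKM in the cora libraries, against 2.08, 1.41 and 2.68 in the control libraries (log2 fold change 0.53 ± 0.44 SE, adjusted p = 0.583). Its groups overlapped, and cora 1 was the only library above 5 normalized RPKM.

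In paralog group 8, whose genes act in the trunk and spinal cord, hoxb8b had the largest fold change of the central genes at a low level. It had 1.81, 3.26, 1.74 and 2.34 normalized RPKM in cora libraries 1 to 4, against 0.277, 0.751 and 0.334 in control 1, the unnumbered control and control 3 (log2 fold change 2.31 ± 0.55 SE, adjusted p = 0.068). The highest control value was under the lowest cora value. The most abundant gene of the group, hoxc8a, had 16.9, 20.99, 10.98 and 10.2 normalized RPKM in the cora libraries, against 5.63, 4.52 and 14.97 in the control libraries (log2 fold change 0.82 ± 0.45 SE, adjusted p = 0.391). Control 3 reached the cora range for this gene and the other control libraries did not. hoxb8a had 11.5, 13.9, 3.1 and 10.9 normalized RPKM in the cora libraries, against 5.36, 6.07 and 8.23 in the control libraries (log2 fold change 0.59 ± 0.44 SE, adjusted p = 0.545), where cora 3 was the lowest of all 7 libraries.

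The posterior members are given by cluster. The 5 posterior hoxda genes, hoxd9a to hoxd13a, which act in the fin buds and the tail, summed to 32.7, 56.3, 46.1 and 6.70 normalized RPKM in cora libraries 1 to 4, against 10.1, 5.77 and 6.30 in the control libraries. Cora 4 was far below the other cora libraries and lay within the control range. The ratio of the means was 4.79 for the posterior hoxda genes, 1.82 for the 4 posterior hoxab genes, 1.03 for the 5 posterior hoxca genes and 0.98 for the 3 posterior hoxba genes. No test was run on these sums, since the members were chosen with results known.

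**Figure D3:**
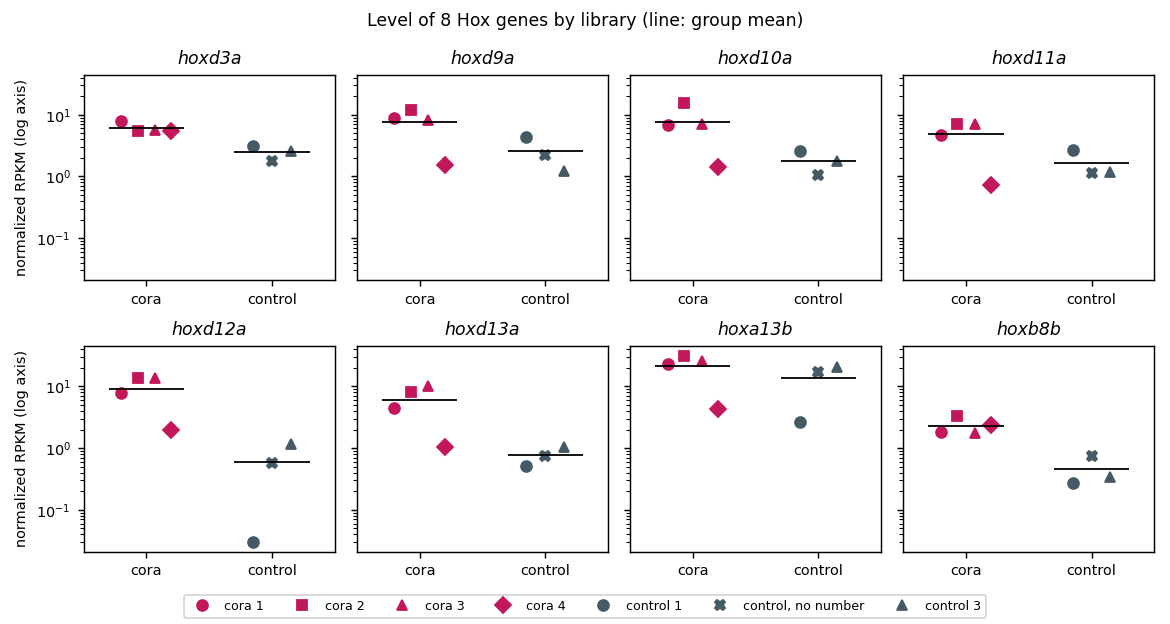
Normalized RPKM of 8 Hox genes in each library on a log axis, with a line at each group mean, cora left and control right. In hoxd12a, hoxd13a, hoxb8b and hoxd3a every cora library lies above every control library, while in hoxa13b the values of cora 4 (4.38) and control 1 (2.67) both lie far below the rest of their groups.

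hoxd12a (ENSDARG00000059263, chr9:1972681-1976813, minus strand), which is used in the posterior part of the fin bud, had the largest log2 fold change among the members. Reads numbered 266, 532, 420 and 68 in cora libraries 1 to 4, against 1, 25 and 55 in control 1, the unnumbered control and control 3. In normalized RPKM the cora values were 7.73, 13.8, 13.5 and 1.94 and the unnumbered control and control 3 had 0.568 and 1.16 (log2 fold change 3.94 ± 0.95 SE, adjusted p = 0.074). The log2 fold change lay between 3.42 without control 1 and 4.89 without control 3. The groups did not overlap, although cora 4 was nearer to the control libraries than to the other cora libraries. hoxd13a (ENSDARG00000059256, chr9:1977615-1981122, minus strand), needed with hoxa13 genes to form the distal fin, had 4.39, 8.18, 10.05 and 1.05 normalized RPKM in the cora libraries, against 0.51, 0.756 and 1.03 in the control libraries (log2 fold change 2.94 ± 0.71 SE, adjusted p = 0.073). The lowest cora value was just above the highest control value. Without cora 4, hoxd10a, hoxd12a and hoxd13a had an adjusted p under 0.05, where 2.98% of all genes tested did, and without control 1 hoxd3a did, where 5.46% of all genes did.

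hoxd10a had 6.9, 15.3, 7.14 and 1.44 normalized RPKM in the cora libraries, against 2.58, 1.05 and 1.75 in the control libraries (log2 fold change 2.11 ± 0.68 SE, adjusted p = 0.153), and hoxd9a had 8.96, 11.9, 8.31 and 1.55 normalized RPKM in the cora libraries, against 4.28, 2.26 and 1.21 in the control libraries (log2 fold change 1.58 ± 0.66 SE, adjusted p = 0.253). In both genes cora 1, 2 and 3 lay above all control libraries and cora 4 did not. hoxd11a showed the same order, with 0.728 to 7.11 normalized RPKM in the cora libraries and 1.14 to 2.72 in the control libraries and a log2 fold change of 1.56. Beyond hoxd13a on the same chromosome lies evx2, a homeobox gene that shares limb enhancers with the hoxd genes in mice. It had 2.97, 1.61, 2.68 and 1.97 normalized CPM in cora libraries against 1.38, 0.72 and 0.85 in control libraries (log2 fold change 1.23 ± 0.46 SE, adjusted p = 0.207 by edgeR).

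hoxa13b (ENSDARG00000036254, chr16:22980334-22982266, plus strand), a gene of the distal fin and the posterior body end, was the most abundant member. It had 23.02, 31.6, 25.5 and 4.38 normalized RPKM in cora libraries 1 to 4, against 2.67, 17.3 and 20.8 in control 1, the unnumbered control and control 3 (log2 fold change 0.63 ± 0.73 SE, adjusted p = 0.708). Cora 4 and control 1 were both far below the other libraries, and the rest of the 2 groups lay near each other. hoxa11b, a fin bud gene, had 7.4, 14.8, 10.3 and 3.32 normalized RPKM in the cora libraries, against 4.01, 5.47 and 4.04 in the control libraries (log2 fold change 0.99 ± 0.44 SE, adjusted p = 0.288). Its groups overlapped because of cora 4. hoxa9b and hoxa10b had log2 fold changes of 1.60 and 0.95, again with overlap.

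Among the posterior genes with a log2 fold change below 0, hoxb13a, a gene of the tail end, had the lowest log2 fold change of all members. It had 13.5, 6.58, 7.58 and 1.86 normalized RPKM in the cora libraries, against 7.25, 14.2 and 7.65 in the control libraries (log2 fold change -0.39 ± 0.55 SE, adjusted p = 0.769). The groups overlapped, with the unnumbered control highest and cora 4 lowest. hoxc13a had 3.61 to 7.34 normalized RPKM in the cora libraries and 3.82 to 8.93 in the control libraries and a log2 fold change of -0.32. For hoxc11a the range was 0.797 to 2.32 normalized RPKM in the cora libraries and 0.697 to 3.74 in the control libraries, and control 1 held the highest value. The other posterior members, hoxb9a, hoxb10a, hoxc9a, hoxc10a and hoxc12a, had log2 fold changes of 0.30, 1.12, 0.21, 0.72 and 1.15, each with overlapping groups.

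As a sign of body position, the share of the summed Hox level was set out by class for each library. Posterior genes held 39.5%, 49.1%, 54.7% and 19.95% of it in cora libraries 1 to 4, against 35.4%, 50.0% and 41.6% in control 1, the unnumbered control and control 3. The means were 40.8 ± 15.3% in cora and 42.3 ± 7.33% in control libraries (SD, n = 4 and 3), a difference smaller than the spread between libraries. Central genes held 43.0 ± 11.2% in cora and 42.3 ± 2.85% in control libraries. Anterior genes held 16.2 ± 4.28% in cora and 15.3 ± 5.77% in control libraries. The sums of all 3 classes had higher means in cora, at 37.3, 99.7 and 103 normalized RPKM for anterior, central and posterior genes, against 19.8, 56.0 and 56.0 in control libraries. The anterior and central sums did not overlap between the groups, and the posterior sum did, through cora 4.

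**Figure D4:**
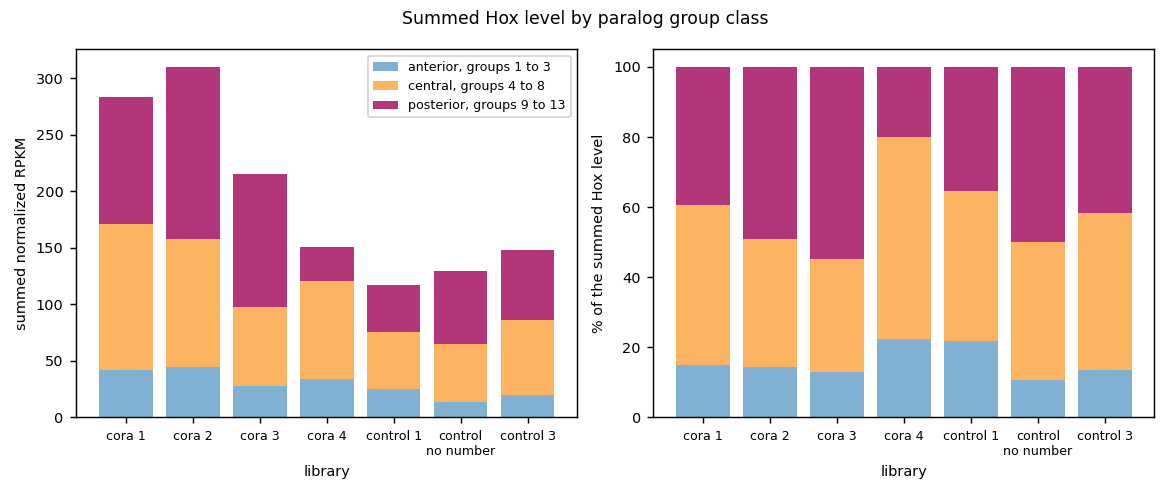
Summed normalized RPKM of anterior, central and posterior Hox genes (left) and the same as % of the summed Hox level (right), 1 bar per library. The posterior share is lowest in cora 4 at 19.95% and highest in cora 3 at 54.7%, and the control libraries, between 35.4% and 50.0%, lie inside that range.

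The libraries of a group were not alike in position. Cora 4 was the lowest of the 4 cora libraries for 15 of 17 posterior members, and for 8 of 21 anterior and central members. It exceeded every control library for 2 of 17 posterior and 13 of 21 other members, and lay below every control library for 7 of 38. Cora 1 exceeded every control library for 31 of 38 members, cora 2 for 29 and cora 3 for 23. The share of all genes tested for which each library was lowest, or lay above or below every control library, was not computed. Without it these counts cannot be read as particular to the Hox genes. Among controls, control 1 was the lowest for 9 of 17 posterior members and for 8 of 21 others. It had the highest posterior hoxda sum of the controls, 10.1 against 5.77 and 6.30 normalized RPKM.

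Markers of some other tissues also differed between these libraries, in different directions. The 16 matched genes of a fin mesenchyme list, led by and2, which encodes an actinodin of the larval fin fold, summed to 5493, 5385, 4068 and 1952 normalized CPM in cora libraries 1 to 4, against 2617, 4936 and 5125 in control 1, the unnumbered control and control 3. Cora 4 and control 1, the libraries lowest in hoxa13b, were also the lowest in this list. In the list 0 of 16 genes passed edgeR's test at an adjusted p under 0.05, where 1.97% of all genes tested did. At an unadjusted p under 0.05 there were 1 higher and 0 lower, where 9.13% of all genes were higher and 8.61% lower. One gene of the list, tbx5b, was at 0 in a library. The fold changes ran between -0.70 for msx3 and 1.31 for sall4. Skeletal muscle markers (17 genes) were highest in the same 2 libraries, with 8931, 5731, 5310 and 16676 normalized CPM in cora libraries 1 to 4, against 13006, 3404 and 3909 in the control libraries. All 17 had a log2 fold change above 0, with a median of 0.44, where 47.8% of all genes tested were above 0. Liver markers were high in cora 4 and low in control 1, with 3749, 4998, 11418 and 28542 normalized CPM in cora libraries, against 8975, 29236 and 27298 in control libraries. Of 15 liver genes 3 had a log2 fold change above 0 and 12 below. The part of these tissues in the Hox levels was not tested.

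**Figure D5:**
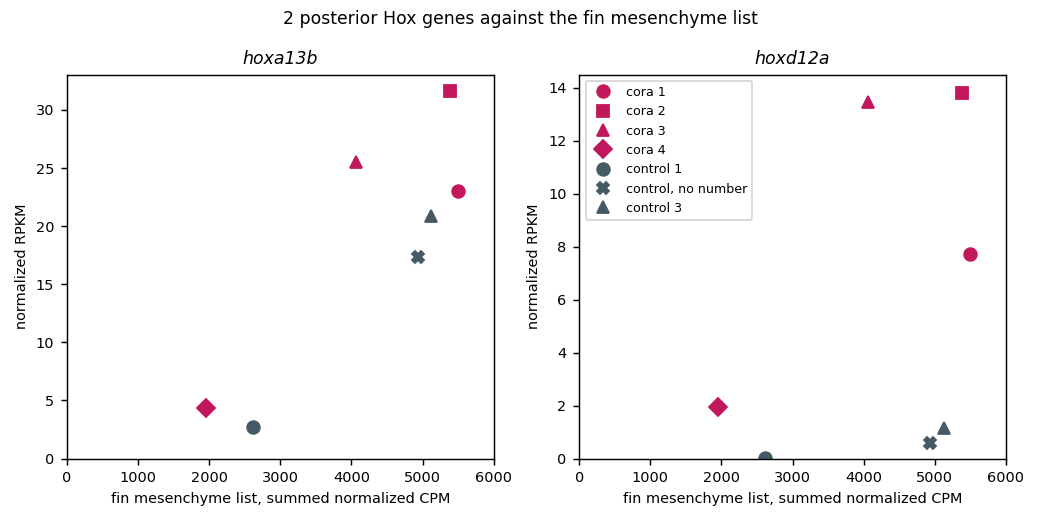
Normalized RPKM of hoxa13b (left) and hoxd12a (right) against the summed normalized CPM of the fin mesenchyme list, 1 point per library. In hoxa13b the unnumbered control and control 3, at 17.3 and 20.8, lie beside cora 1 at 23.0, whereas in hoxd12a they lie at 0.568 and 1.16 with cora 1 at 7.73.

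Within each group hoxd12a had the same order of libraries as hoxa13b, and both were lowest in cora 4 and in control 1. The level of hoxd12a relative to hoxa13b differed between the groups. Relative to hoxa13b in the same library, hoxd12a reached 0.336, 0.437, 0.528 and 0.442 in cora libraries 1 to 4, against 0.011, 0.033 and 0.056 in control 1, the unnumbered control and control 3, where the value of control 1 rests on 1 read. The same ratio for hoxd13a was 0.191, 0.259, 0.394 and 0.239 in cora libraries, against 0.191, 0.044 and 0.049 in control libraries, so cora 1 and control 1 were level. Both ratios were chosen after their values were seen and carry no test.

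Markers of the nervous system and the pronephros, which use Hox genes along the body, were summed in the same way. Neuron markers (16 genes) summed to 2200 to 3916 normalized CPM in cora and 2876 to 4159 in control libraries. Hindbrain and spinal cord markers (17 genes) summed to 108 to 143 in cora and 108 to 129 in control libraries, with phox2ba, mnx2a and mnx2b at 0 in a library. For pronephros (16 genes) the sums were 166 to 428 in cora and 334 to 577 in control libraries. In edgeR's test 1 pronephros gene had an adjusted p under 0.05, lower in cora, and 0 genes of the other 2 lists did. At an unadjusted p under 0.05 there were 0 higher and 5 lower for pronephros and 1 and 3 for neuron. For hindbrain and spinal cord there were 2 and 0. Over all genes tested 9.13% were higher and 8.61% lower. Of the lens list 7 of 14 genes were called higher in cora, that is, with an adjusted p under 0.05 in edgeR's test. Over all genes tested this share was 1.11%. Of the exocrine pancreas list 11 of 12 were called lower, where 0.86% of all genes tested were. The part of these tissues in the Hox levels was not tested.

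Across 7 lists of cofactors, upstream regulators, chromatin proteins and other homeobox genes, 3 of 100 genes tested had an adjusted p under 0.05, where 1.97% of all genes tested did. Of 10 Hox cofactor genes (pbx, meis and pknox), 9 had a log2 fold change above 0, where 47.8% of all genes tested did. Their median was 0.40 and 0 passed edgeR's test. At an unadjusted p under 0.05 there were 1 higher and 1 lower, where 9.13% of all genes were higher and 8.61% lower. meis2b was highest at 0.79 ± 0.28 SE and pknox2 lowest at -0.58 ± 0.22 SE. In the retinoic acid list, 0 of 24 passed, with 5 higher and 2 lower at an unadjusted p under 0.05. Over all genes tested those shares were 9.13% and 8.61%. cyp26a1, a retinoic acid target that degrades it, had 13.6, 15.2, 14.4 and 3.45 normalized CPM in cora libraries, against 4.13, 1.28 and 1.43 in control libraries (log2 fold change 2.37 ± 0.62 SE, adjusted p = 0.088). Cora 4 was again lowest among the cora libraries and overlapped the controls. At the other end, aldh1a3, an enzyme that makes retinoic acid, had a log2 fold change of -1.85 ± 0.75 SE.

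Among 4 cdx and ParaHox genes, gsx1, a forebrain and hindbrain homeobox gene, was called lower, with 1.67, 1.68, 1.15 and 2.14 normalized CPM in cora and 8.91, 5.30 and 5.95 in control libraries (log2 fold change -2.01 ± 0.35 SE, adjusted p = 0.033). cdx4, an activator of posterior Hox genes, varied widely, with 7.12, 15.2, 0.647 and 0.411 normalized CPM in cora and 2.93, 0.033 and 0.152 in control libraries (log2 fold change 2.53 ± 1.51 SE, adjusted p = 0.432). The control value of 0.033 is 1 read. Of 17 homeobox genes of the head, otx2b, a forebrain and midbrain gene, was called lower, with 17.2, 17.3, 18.5 and 19.9 normalized CPM in cora against 40.7, 36.4 and 33.2 in control libraries (log2 fold change -1.01 ± 0.18 SE, adjusted p = 0.034). The lowest of that list was en2b at -1.52 and the highest emx3 at 1.08.

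Hindbrain regulators gave 0 calls in 9 genes and ran between -1.46 for hnf1bb and 1.08 for mafbb. At an unadjusted p under 0.05 there were 1 higher and 2 lower, where 9.13% of all genes tested were higher and 8.61% lower. Polycomb proteins keep Hox clusters silent, and of 24 such genes 1 was called, where 1.97% of all genes tested were. This was cbx7a, a chromatin reader of the complex, with 209.8, 197, 291 and 141 normalized CPM in cora against 46.6, 48.4 and 39.9 in control libraries (log2 fold change 2.22 ± 0.28 SE, adjusted p = 0.012). The other end of the list was pcgf6 at -0.73. Trithorax genes, which keep Hox genes active, gave 0 calls in 12 genes, with 0 at an unadjusted p under 0.05, between -0.27 for kdm5bb and 0.41 for men1.

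Some Hox genes share exons in the annotation, and reads there cannot be assigned to 1 gene alone. hoxc9a shares 523 bases of exon with hoxc10a, which is 44.7% of its exons, and hoxc3a shares 189 bases with hoxc10a. Antisense transcripts overlap exons of hoxb3a, hoxb8b, hoxc3a, hoxc9a and hoxc10a, and since strand handling in the counting is not given in the sources used here, the levels of these 5 genes are uncertain to that extent. For hoxb8b the overlap is 55 bases. The antisense transcript there had a log2 fold change of 2.26 ± 0.74 SE, with all cora libraries above all control libraries. The one over hoxc3a had 1.11 ± 0.43 SE, also without overlap of the groups. Those over hoxb3a, hoxc9a and hoxc10a had 1.58, 0.58 and 0.56, with overlap. The part of shared reads in these values was not tested. Of 27 other features within 20 kb of a Hox gene, these antisense transcripts included, 13 were tested. The log2 fold change was above 0 for 7 and below for 6, and 0 passed edgeR's test. At an unadjusted p under 0.05 there were 3 higher and 0 lower, where 9.13% of all genes tested were higher and 8.61% lower.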

How the data were processed

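RNA sequencing libraries (4 cora, 3 control) were described by the labels as heart RNA at 96 hpf, while the sample titles name zebrafish embryos. The authors deposited a table for each library that gives 3 values for each of 33737 Ensembl gene IDs, beside the exon positions. Counts, as deposited by the authors, are whole numbers of reads per gene and are not normalized. The deposited CPM scales the count to the library's total, and the RPKM deposited by the authors also takes exon length into account. The submitters' processing notes name STAR 2.0.4b, Subread, featureCounts 1.4.5, edgeR and limma, without roles. The exon coordinates are those of Zv9, which was recognised from chromosome 1 and is not named in the labels. How strand and multiply matching reads were handled is not given in the sources used here.

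The counts were tested with edgeR 4.0.16 under R 4.3.3, and voom came from limma 3.58.1. Genes were kept by filterByExpr with the group, scaled by TMM and compared by glmQLFit and glmQLFTest without covariates over all 21632 genes tested, with Benjamini-Hochberg adjustment and a threshold of 0.05. Log2 fold changes used a prior count of 0.125, and the SE was taken from the quasi-likelihood F statistic. Normalized RPKM was computed from counts, TMM-scaled library sizes and exon length, and normalized CPM without the length. Alternatives were other scalings, filters, DESeq2 1.42.0, voom with quality weights, removal of mitochondrial genes, leaving out each library, and the replicate number as a block. The procedure was run on simulated data. How often it calls a gene that differs, at the spread between these libraries, is not given here.

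Gene symbols were looked up by Ensembl ID, and 26 of the 38 members, which the lookup gives as capital, human-style symbols, were given the zebrafish name of the RefSeq gene of that symbol on the same chromosome (assembly GRCz12tu). This rule was set after the files were read. Of 402 list entries 316 were matched. Members and lists were chosen with earlier results of these data known. Values per library are given for members whose groups did not overlap, the 10 highest by mean level, the highest of each paralog group, and the lowest and highest fold change. For lists other than the marker lists, called genes and the lowest and highest fold change are named. Calls in marker lists are given as counts, and only the fin mesenchyme list has its lowest and highest fold change named. The neighbour distance of 20 kb was chosen after values were seen. The labels do not say whether replicates are separate clutches, so p-values measure the spread between these pools. No pair of libraries agreed within sampling noise.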

Additional observations from a re-analysis of the deposited data

Results flagged for a closer look

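In the 4 cora libraries, the gap of the most distant library to its nearest neighbour, as a share of the range of log2 level, was above Dixon's 95% critical value for 7 of 59 quantities checked (38 genes and 21 sums). Chance flags about 1 in 20 such groups, the quantities share libraries and reads, and the log scale was chosen after the files were read. Cora 4 was low for hoxa9b (0.887), hoxa13b (0.839), the summed level of paralog group 9 (0.862) and that of paralog group 13 (0.93). Cora 3 was low for hoxb4a (0.885) and hoxb8a (0.841), and cora 1 was high for hoxd3a (0.923). The control group, with 3 libraries, was not checked.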

How the results depend on the processing

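In 16 alternatives the median log2 fold change of the Hox genes stayed positive, between 0.69 and 1.04. The number of Hox genes with an adjusted p under 0.05 was 0 in the reported analysis. It was also 0 under DESeq2 size factors in edgeR, upper quartile scaling, no filter and removal of mitochondrial genes. These fits called 1.76% to 1.98% of all genes tested. The replicate block kept only the libraries numbered 1 and 3 of each group. That fit called 0 of all genes tested, so its 0 for the Hox genes cannot be read as agreement. The number was 1 with library size alone, where 1.88% of all genes tested were called. With at least 10 counts in every library it was also 1, where 2.92% were. The gene was hoxd3a in both, with 33 members tested in the second. The number was 9 with DESeq2 and 7 with voom and quality weights, which also called more of all genes, 8.32% and 14.4%. Leaving out each library gave 0 to 3, with 3 without cora 4 (2.98% of all genes) and 1 (hoxd3a) without control 1 (5.46% of all genes). The rest of these fits gave 0, where 0.154% to 0.974% of all genes were called. The cause of these differences was not tested. A further fit without both cora 4 and control 1 was tried after their low posterior Hox levels had been seen. It called more Hox genes and also more of all genes tested, and it is not used, because the libraries were picked by the outcome.

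Genes of the related and tissue marker lists together with an adjusted p under 0.05 numbered 25 of 307 tested, where 1.97% of all genes tested passed. Most of them came from 2 marker lists, with 7 lens and 11 exocrine pancreas genes. Of 16 epidermis genes 1 was called higher and 1 lower in cora. Of 16 pronephros genes 1 was called lower, and of 13 endothelium genes 1. The 7 lists of cofactors, regulators, chromatin proteins and other homeobox genes gave 3 of 100. Over all these lists the number was 49 of 303 with DESeq2, where 8.32% of all genes passed, and 79 of 307 with voom, where 14.4% did. With the replicate block there were 0 of 307, where 0 of all genes tested passed. Leaving out 1 library gave 7 to 35, where 0.154% to 5.46% of all genes passed. The library numbers 1 and 3 are shared by both groups, but the labels do not say that they mark a clutch. The numbers were therefore not taken as a pairing. Deviations of libraries 1 and 3 from their mean correlated at 0.07 across genes between the groups. This is a single value for both numbers and cannot tell whether the numbers mark shared clutches. With the replicate block 0 of 37 Hox genes tested and 0 of all genes had an adjusted p under 0.05 in edgeR's test. At an unadjusted p under 0.05 there were 12 Hox genes, and this share was not computed over all genes.

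Signs turned for 9 genes. hoxa2b was -0.0053 with upper quartile scaling, -0.0021 with at least 10 counts, -0.12 with the block and -0.35 to 0.58 when 1 library was left out. With the block hoxb8a was -0.14, hoxb13a 0.45, hoxc1a -0.10 and hoxc13a 0.036. On leaving out 1 library, hoxb1a ranged between -1.54 and 0.29, hoxb9a between -0.015 and 0.83, hoxc1a between -0.20 and 1.18, hoxc9a between -0.054 and 0.45 and hoxc11a between -0.62 and 0.93. With voom hoxc11a was 0.81.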
